A study of Mus musculus with 5 samples.

Results

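The fibrillar collagen chains examined here were Col1a1, Col1a2, Col2a1, Col3a1, Col5a1, Col5a2, Col5a3, Col11a1, Col11a2 and Col24a1. They were chosen by gene symbol among the 56941 gene identifiers of the deposited count table, and all 10 were found. Every chain had at least 38 counts in every pool, so all 10 passed the minimum of 10 counts in at least 1 pool that was set for testing. The rule that names them uses no measured value.

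RNA was sequenced from the iridocorneal angle, the ring of tissue between iris and cornea through which aqueous humor leaves the eye. The 3 DBA/2J pools came from mice with mutant Gpnmb and Tyrp1b alleles, a strain that develops pigmentary glaucoma. The 2 Gpnmb+ pools came from DBA/2J-Gpnmb+/SjJ mice, which have the same background and the same Tyrp1b allele but a functional Gpnmb gene. The labels give mice of both sexes, untreated and 12 months old (the methods give a range that starts at that age), and the authors describe 3 mice to a pool. The library names list 3 animals for each DBA/2J pool and 2 for each Gpnmb+ pool. Because the RNA came from dissected tissue that holds several cell types, fewer cells of a type and less RNA per cell cannot be told apart.

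Counts on genes summed to between 43900661 and 49837758 per pool. Levels are given in CPM, counts scaled to the depth of each pool. Gpnmb, the gene that separates the genotypes, averaged 47.2 ± 4.35 CPM (SD, n = 3) in DBA/2J and 2407 ± 209 CPM (SD, n = 2) in Gpnmb+, in the direction of the labels. Tyrp1, shared by the strains, overlapped between them, at 887 ± 88.9 CPM (SD, n = 3) and 844 ± 112 CPM (SD, n = 2). The pools were not balanced for sex. Xist, made from the inactive X chromosome of females, lay at 13.4, 0 and 54.2 CPM in pools 1 to 3 of DBA/2J and at 155 and 187 CPM in the Gpnmb+ pools. The Y-linked Ddx3y lay at 81.1, 97.1 and 35.1 CPM in the DBA/2J pools and at 0 and 0.0818 CPM in the Gpnmb+ pools, so male RNA was close to absent from the Gpnmb+ libraries although the labels give both sexes. Sex and genotype therefore cannot be told apart in any value below.

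Fibrillar collagens are the rope-like collagens that carry tension in tissue. Chains are wound into triple helices in the endoplasmic reticulum, secreted as procollagens, trimmed of their propeptides and packed side by side into cross-linked fibrils. Type I collagen, built from Col1a1 and Col1a2 chains, and type III, built from Col3a1, make up the bulk of fibrils in soft tissue. Types V and XI sit inside those fibrils and limit their width, type II is the main collagen of cartilage and vitreous, and type XXIV is a minor chain best known from bone. In the anterior segment these collagens form the sclera, the corneal stroma and the beams of the trabecular meshwork.

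For 7 chains, Col1a1, Col1a2, Col2a1, Col3a1, Col5a1, Col5a2 and Col11a1, all DBA/2J pools held more RNA than either Gpnmb+ pool. Their log2 fold changes ran from 0.70 for Col5a1 to 1.90 for Col2a1. Col5a3 and Col11a2 leaned the same way with overlapping pools, and Col24a1 leaned the opposite way. The median over the 10 chains was 0.84, beside -0.02 over the 19713 genes tested. Pools of the genotypes did not overlap, with DBA/2J higher, for 17.3% of all genes tested, and with DBA/2J lower for 17.2%.

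No chain was called by edgeR's quasi-likelihood test. A call needed a p-value, adjusted by the method of Benjamini and Hochberg, that did not exceed 0.05 and a fold change of 1.5 or more. That rule called 0.796% of all genes, 0.502% higher and 0.294% lower in DBA/2J. Unadjusted p-values were at most 0.05, with DBA/2J higher, for the same 7 chains, beside 8.31% of all genes higher and 7.6% lower. The count of called chains depended on the tool and on the count minimum. DESeq2, the tool of the study's methods, called those 7 chains, beside 5.21% of its tested genes in either direction and 3.06% higher, and limma-voom called Col2a1 alone, beside 0.964% of all genes. edgeR without the count minimum called Col1a1, Col2a1 and Col11a1, at adjusted p-values of 0.0427, 0.0175 and 0.038, beside 1.12% of all genes.

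**Figure D1:**
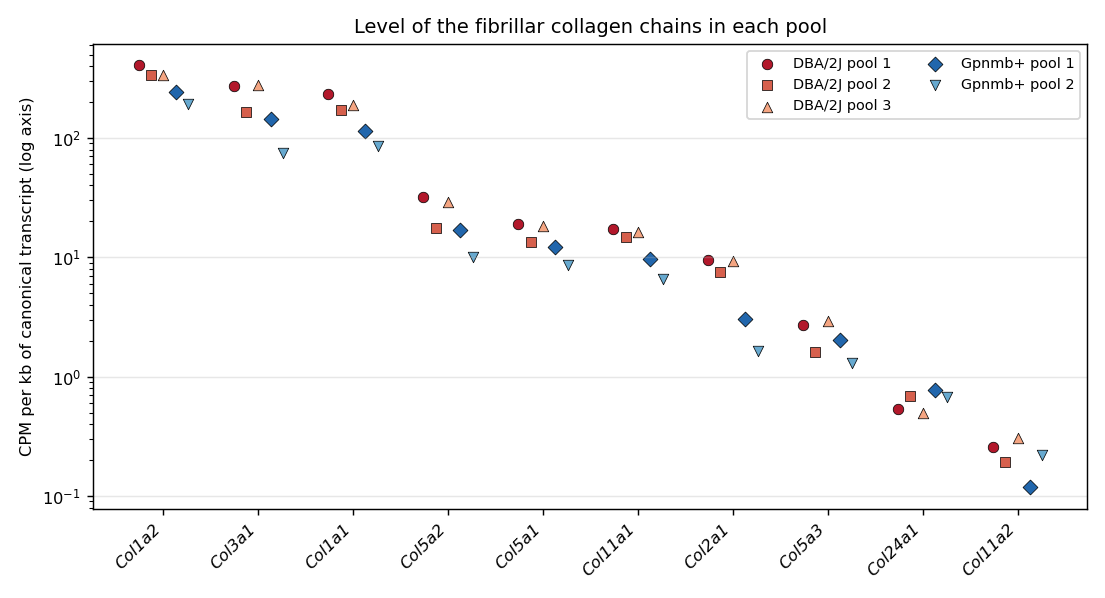
Level of each chain in each pool, as CPM per kb of canonical transcript on a log axis, with chains ordered by their mean over the 5 pools. Red symbols are the 3 DBA/2J pools and blue symbols the 2 Gpnmb+ pools. The red symbols lie above the blue ones for Col1a2, Col3a1, Col1a1, Col5a2, Col5a1, Col11a1 and Col2a1, and mix with them for Col5a3, Col24a1 and Col11a2.

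A sequence that many of the chains share is the recognition site of the miR-29 family, short RNAs long known to bind collagen messages. The mature sequences, from RefSeq, are printed with the seed, bases 2 to 8, in capitals, and the 3 members share it.
mmu-miR-29a-3p: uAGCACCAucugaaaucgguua
mmu-miR-29b-3p: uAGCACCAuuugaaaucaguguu
mmu-miR-29c-3p: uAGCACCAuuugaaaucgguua

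The seed's complement, TGGTGCT, was searched on the sense strand of the canonical 3′ UTR of each chain in GENCODE (GRCm39). It was found in 8 of the 10 chains, with 14 matches in all, and in 16.1% of the 15716 tested genes that had a 3′ UTR. More than 1 match was found in Col5a1, Col5a3 and Col11a1, with 4, 3 and 2, whereas 2.9% of genes had 2 or more. The chains' UTRs had a median length of 1132 bases, against 1314 over all genes, so the chains did not have the longer UTRs. Col1a2 and Col11a2 had no match. Col24a1, the chain that leaned lower in DBA/2J, had 1 match, as did Col3a1 and Col2a1, which leaned higher. The libraries counted messages and not mature miRNAs, so whether these sites were used was not tested. Below, 30 bases around 1 match are given for each chain that has one, 5′ to 3′ on the gene's strand, with the match in capitals and an eighth matching base, A, where there is one.
Col1a1 3′ UTR, chr11:94843353-94843382, plus strand, GRCm39: gaaggaatttcTGGTGCTAtagaagctgag
Col3a1 3′ UTR, chr1:45388131-45388160, plus strand, GRCm39: aaatgtctcaaTGGTGCTAtaataaataaa
Col5a1 3′ UTR, chr2:27928351-27928380, plus strand, GRCm39: ctgaatgtttgTGGTGCTAatctctgtgtg
Col5a2 3′ UTR, chr1:45414114-45414143, minus strand, GRCm39: tcttttaatgaTGGTGCTAaaattatttct
Col5a3 3′ UTR, chr9:20681788-20681817, minus strand, GRCm39: accaggcctttTGGTGCTAttcctttccat
Col11a1 3′ UTR, chr3:114012721-114012750, plus strand, GRCm39: ttggatttcgtTGGTGCTgtagaaaacaaa
Col2a1 3′ UTR, chr15:97873551-97873580, minus strand, GRCm39: gtcctacacaaTGGTGCTAttctgtgtcaa
Col24a1 3′ UTR, chr3:145256954-145256983, plus strand, GRCm39: ttggtgttgctTGGTGCTgtctcccaaaac

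A further window is the stretch around the start of transcription, 250 bases before to 50 after, taken from RefSeq for GRCm38.p6, a build older than that of the counts. Such windows were at hand for 7 of the 10 chains, all but Col1a1, Col2a1 and Col5a2. The windows were searched on both strands for 3 motifs, and in the chains no match of a motif overlapped that of another. CCAAT, the box that NF-Y binds, was present in Col1a2, Col11a1 and Col5a3, and in 37.4% of all 32851 windows. TATAAA, the letters of the TATA box, was present in Col3a1 and Col11a2, and in 13.6% of windows. GGGCGG, a core recognised by Sp1, was present in 5 of the 7 chains, and in 35.7% of windows. No motif was common to the chains that were higher in DBA/2J, and Col24a1 had none of them. The windows printed here have motif matches on either strand in capitals, for 2 abundant chains with different motifs, for Col11a1, whose DBA/2J pools were the most alike, and for Col24a1.
Col1a2 promoter, chr6:4505368-4505667, plus strand, GRCm38.p6: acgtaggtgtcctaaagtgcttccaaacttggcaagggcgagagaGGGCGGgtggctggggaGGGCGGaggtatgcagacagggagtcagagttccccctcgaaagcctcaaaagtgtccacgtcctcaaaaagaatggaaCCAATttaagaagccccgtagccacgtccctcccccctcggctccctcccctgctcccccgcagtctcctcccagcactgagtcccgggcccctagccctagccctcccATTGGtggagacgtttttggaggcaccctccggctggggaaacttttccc
Col3a1 promoter, chr1:45311288-45311587, plus strand, GRCm38.p6: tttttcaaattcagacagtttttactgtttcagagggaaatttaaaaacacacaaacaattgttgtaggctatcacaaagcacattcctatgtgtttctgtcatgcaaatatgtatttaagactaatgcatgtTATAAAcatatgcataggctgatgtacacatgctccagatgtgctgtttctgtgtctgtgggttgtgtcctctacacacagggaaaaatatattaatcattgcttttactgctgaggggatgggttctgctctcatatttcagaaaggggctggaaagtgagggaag
Col11a1 promoter, chr3:114030290-114030589, plus strand, GRCm38.p6: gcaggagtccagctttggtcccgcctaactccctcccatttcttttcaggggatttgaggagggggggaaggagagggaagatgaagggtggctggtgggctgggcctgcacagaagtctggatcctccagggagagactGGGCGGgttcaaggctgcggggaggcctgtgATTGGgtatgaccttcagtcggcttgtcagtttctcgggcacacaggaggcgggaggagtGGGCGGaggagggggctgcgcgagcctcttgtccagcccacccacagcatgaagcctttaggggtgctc
Col24a1 promoter, chr3:145292222-145292521, plus strand, GRCm38.p6: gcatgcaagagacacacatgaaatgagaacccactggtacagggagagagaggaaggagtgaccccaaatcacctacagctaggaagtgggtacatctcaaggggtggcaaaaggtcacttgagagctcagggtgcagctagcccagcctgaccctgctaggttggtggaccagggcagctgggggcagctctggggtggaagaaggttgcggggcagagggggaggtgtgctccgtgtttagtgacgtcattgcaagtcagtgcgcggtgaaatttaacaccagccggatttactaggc

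Type I and type III chains gave most of the family's RNA. Col1a1 (ENSMUSG00000001506, chr11:94827050-94843868, plus strand, GRCm39), the major chain of type I collagen, stood at 1393, 1018 and 1118 CPM in the DBA/2J pools, in the order 1 to 3, and at 675 and 509 CPM in Gpnmb+, in the order 1 to 2, an order kept below. All DBA/2J pools lay above the higher Gpnmb+ pool, by a margin larger than the distance between the Gpnmb+ pools. The means were 1176 ± 194 (SD, n = 3) and 592 ± 118 CPM (SD, n = 2), a log2 fold change of 0.99 ± 0.19 (SE) with an edgeR adjusted p of 0.0867.

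Col1a2 (ENSMUSG00000029661, chr6:4504814-4541555, plus strand), the partner chain of type I, stood at 2188, 1793 and 1797 CPM in DBA/2J and at 1293 and 1031 CPM in Gpnmb+. The gap was the same in kind but smaller, with a log2 fold change of 0.73 ± 0.16 (SE) and an edgeR adjusted p of 0.111. Col1a2 lies on the same chromosome as Gpnmb, 44.5 Mb away.

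Col3a1 (ENSMUSG00000026043, chr1:45350698-45395840, plus strand), the chain of type III collagen, stood at 1514, 920.1 and 1558 CPM in DBA/2J and at 809 and 414 CPM in Gpnmb+. Its pools were widely spread: DBA/2J pool 2 lay only just above Gpnmb+ pool 1, and the Gpnmb+ pools differed by 0.97 on the log2 scale. The log2 fold change of 1.12 ± 0.36 (SE) had an edgeR adjusted p of 0.221, and it went from 0.72 without Gpnmb+ pool 2 to 1.69 without Gpnmb+ pool 1. Each of these values stands on the same side of 0, and their size was set largely by which Gpnmb+ pool was kept.

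The chains of types V and XI, which are built into type I fibrils and restrain their growth, came next. Col5a1 (ENSMUSG00000026837, chr2:27776397-27929526, plus strand), present in every common form of type V, stood at 160.0, 114 and 153 CPM in DBA/2J and at 103 and 72.6 CPM in Gpnmb+. This gave a log2 fold change of 0.70 ± 0.21 (SE) with an edgeR adjusted p of 0.193. DBA/2J pool 2 again lay nearest to the Gpnmb+ pools.

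Col5a2 (ENSMUSG00000026042, chr1:45412554-45542442, minus strand), the usual partner of Col5a1, stood at 243, 134 and 221 CPM in DBA/2J and at 129 and 75.3 CPM in Gpnmb+. DBA/2J pool 2 and Gpnmb+ pool 1 were close to equal, and the log2 fold change of 0.96 ± 0.33 (SE) had an edgeR adjusted p of 0.246. It went to 1.41 without Gpnmb+ pool 1 and to 0.63 without Gpnmb+ pool 2. Col5a2 is the neighbour of Col3a1 on the opposite strand, with 16.7 kb between their ends. The order of the 5 pools was alike in both genes, except that DBA/2J pools 1 and 3 changed places.

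Col5a3 (ENSMUSG00000004098, chr9:20681337-20726418, minus strand), a rarer type V chain, stood at 16.7, 9.90 and 18.0 CPM in DBA/2J and at 12.5 and 7.97 CPM in Gpnmb+. The groups overlapped because DBA/2J pool 2 fell between the Gpnmb+ pools. Its log2 fold change was 0.54 ± 0.31 (SE) with an edgeR adjusted p of 0.459, and it went to 0.90 without Gpnmb+ pool 1 and to 0.25 without Gpnmb+ pool 2.

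Col11a1 (ENSMUSG00000027966, chr3:113824134-114014367, plus strand), a type XI chain that also combines with type V chains outside cartilage, stood at 135, 115 and 125 CPM in DBA/2J and at 74.4 and 50.3 CPM in Gpnmb+. Its DBA/2J pools were the closest together of any of the 10 chains, 0.23 apart on the log2 scale from lowest to highest. The log2 fold change was 1.00 ± 0.18 (SE) with an edgeR adjusted p of 0.0768. Without Gpnmb+ pool 1, which leaves a single Gpnmb+ library assumed to vary like the DBA/2J pools, the edgeR adjusted p became 0.0347 at a log2 fold change of 1.31. Without any other pool it ran from 0.156 to 0.198.

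Col11a2 (ENSMUSG00000024330, chr17:34258108-34285664, plus strand), the other chain particular to type XI, was scarce: the DBA/2J pools held 72, 52 and 86 counts and the Gpnmb+ pools 38 and 69. Scaled, these were 1.62, 1.21 and 1.93 CPM against 0.749 and 1.41 CPM, with overlap, and the Gpnmb+ pools stood in the opposite order to that of the other chains. That is a log2 fold change of 0.56 ± 0.37 (SE) with an edgeR adjusted p of 0.522, and it went to 0.17 without Gpnmb+ pool 1 and to 1.08 without Gpnmb+ pool 2.

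Col2a1 (ENSMUSG00000022483, chr15:97873483-97902689, minus strand), the chain of type II collagen whose product also serves in type XI, showed the widest gap of the 10. It stood at 49.2, 39.6 and 48.5 CPM in DBA/2J and at 15.9 and 8.52 CPM in Gpnmb+, so the lowest DBA/2J pool was well above the higher Gpnmb+ pool. The means were 45.8 ± 5.36 (SD, n = 3) and 12.2 ± 5.25 CPM (SD, n = 2), a 3.74-fold difference. The log2 fold change of 1.90 ± 0.28 (SE) had an edgeR adjusted p of 0.0513, just outside the threshold. It passed with DESeq2, at an adjusted p of 2.58e-09, with limma-voom, at 0.0414, with edgeR and no count minimum, and without Gpnmb+ pool 1, at an edgeR adjusted p of 0.0213 with a single Gpnmb+ library left. Without any other pool the edgeR adjusted p ran from 0.107 to 0.159. Over the pools left out in turn the log2 fold change ran from 1.52 to 2.43.

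Col24a1 (ENSMUSG00000028197, chr3:144998233-145257766, plus strand), the type XXIV chain, stood at 3.82, 4.91 and 3.54 CPM in DBA/2J and at 5.50 and 4.84 CPM in Gpnmb+. DBA/2J pool 2 fell between the Gpnmb+ pools. The log2 fold change was -0.34 ± 0.20 (SE), with an edgeR adjusted p of 0.474. Its closest relative, Col27a1 (type XXVII), which was not among the 10, stood at 3.60, 3.42 and 4.75 CPM in DBA/2J and at 7.78 and 7.85 CPM in Gpnmb+. All DBA/2J pools of Col27a1 lay below the Gpnmb+ pools, with a log2 fold change of -0.99 ± 0.19 (SE) and an edgeR adjusted p of 0.0867.

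**Figure D2:**
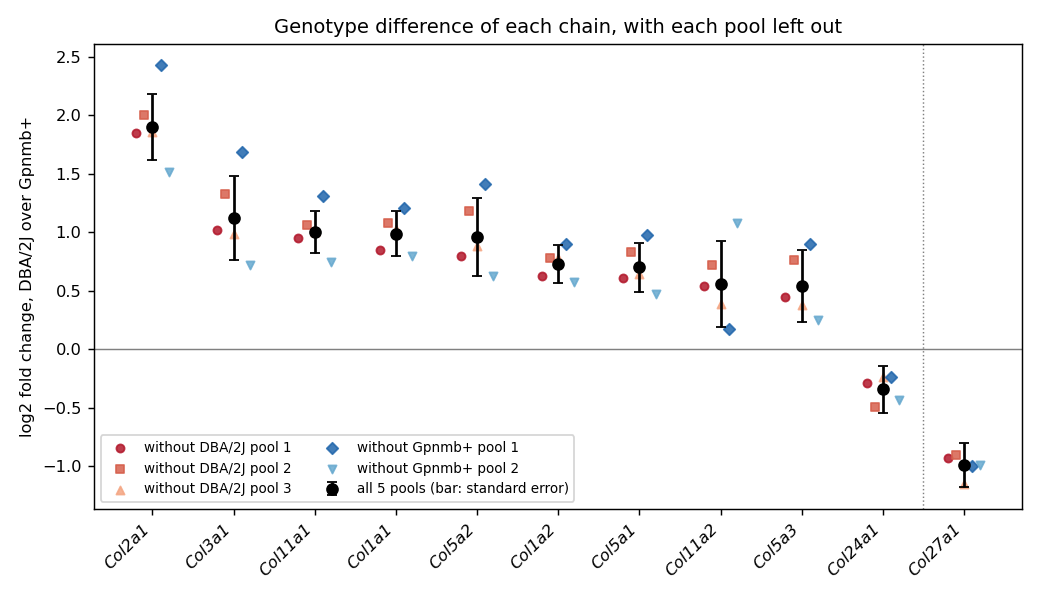
Log2 fold change of each chain, DBA/2J over Gpnmb+, from edgeR. Black points with standard error bars use all 5 pools, coloured points leave out 1 pool each, and Col27a1 stands apart at the right. Col2a1 is highest at 1.90, Col24a1 is negative at -0.34, and leaving out either Gpnmb+ pool moves each of the 10 chains but Col24a1 further than leaving out a DBA/2J pool.

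Per kb of canonical transcript the chains ran, from the highest mean level over the 5 pools, Col1a2, Col3a1, Col1a1, Col5a2, Col5a1, Col11a1, Col2a1, Col5a3, Col24a1 and Col11a2. Within single pools Col3a1 was 0.868 to 1.49 times Col1a1 and Col11a1 was 0.758 to 1.10 times Col5a1, so the order inside these pairs differed between pools. Col5a2 lay above Col5a1 in all 5 pools, at 1.16 to 1.70 times its level, although with exon union lengths, described next, that range became 0.809 to 1.19. Col2a1 and Col5a3 were apart in DBA/2J, at 7.59 to 9.44 against 1.60 to 2.91 CPM per kb, and overlapped in Gpnmb+, at 1.63 to 3.06 against 1.29 to 2.02 CPM per kb. With lengths taken from the union of all annotated exons, an alternative added after the data were seen, Col1a1 came first and Col1a2 and Col3a1 followed.

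Together the 10 chains took 0.556%, 0.406% and 0.513% of all counts in DBA/2J against 0.318% and 0.220% in Gpnmb+. The means were 0.492% ± 0.0776 (SD, n = 3) and 0.269% ± 0.0688 (SD, n = 2). The groups did not overlap, and the exact two-sided permutation test gave p = 0.2, the smallest that 3 pools against 2 allow. The share held the same order of groups without Col1a1, Col1a2 and Col3a1, at 0.0594%, 0.0409% and 0.0581% against 0.0348% and 0.0224%.

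Most of the family's RNA came from its most abundant chains in every pool. Col1a1, Col1a2 and Col3a1 together made between 91.3% and 92.4% of the family's counts per kb in each of the 5 pools. Within that sum the pools differed, with Col3a1 between 19.5% and 31.8% and Col1a2 between 38.1% and 50.4%. At the lower end, Col2a1 made 0.947%, 1.04% and 1.06% in DBA/2J and 0.560% and 0.428% in Gpnmb+. Col24a1 made 0.0537%, 0.0945% and 0.0563% in DBA/2J against 0.141% and 0.178% in Gpnmb+.

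A set of 10 chain ratios, counts per kb of one chain over another, were compared between pools. In 6 of them the genotypes did not overlap, 3 with DBA/2J higher and 3 with DBA/2J lower. Of single genes, 34.5% did not overlap in either direction, but that share is of levels and none was computed for ratios. The 10 ratios also use some chains more than once, so they are not separate items. The 6 ratios without overlap had an exact permutation p of 0.2, or 0.333 when adjusted over the 10. Since no ratio can go below 0.2, these are descriptions of the pools.

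The Col1a1 to Col1a2 ratio, the balance of the type I chains, was 0.575, 0.513 and 0.562 in DBA/2J and 0.472 and 0.446 in Gpnmb+. The shift toward Col1a1 was 0.26 on the log2 scale. The level of this ratio depends on the length used: with the exon union it ran from 0.951 to 1.23 over the pools, and the shift between genotypes is not affected, since a length cancels there. The ratio therefore says how the pools differ and not how many chains of each kind were made.

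For Col2a1 the genotypes did not overlap in ratio, to Col1a1 or to Col11a1, as they did not in level. Col2a1 to Col1a1 was 0.0402, 0.0443 and 0.0493 in the DBA/2J pools, against 0.0268 and 0.0191 in Gpnmb+, a difference of 0.97 on the log2 scale. Col11a1 to Col2a1 was 1.85, 1.96 and 1.74 in DBA/2J against 3.15 and 3.99 in Gpnmb+, a difference of -0.94. In that last ratio the log2 values of the DBA/2J pools ran from 0.80 to 0.97 and those of the Gpnmb+ pools from 1.66 to 2.00.

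Col24a1 to Col1a1 showed the widest difference of the 10 ratios, -1.34 on the log2 scale. The ratio was 0.00228, 0.00401 and 0.00263 in DBA/2J and 0.00676 and 0.00791 in Gpnmb+. The larger part of this lay in Col1a1, with a log2 fold change of 0.99, against -0.34 with overlapping pools for Col24a1. Among the type V and XI chains, Col5a1 had a smaller log2 fold change, 0.70, than Col5a2 at 0.96 and Col11a1 at 1.00. That of Col1a1 was 0.99, and 2 ratios that hold Col5a1 followed from this. Col5a1 to Col1a1 was lower in DBA/2J, with a difference of -0.29 on the log2 scale, while Col11a1 to Col5a1 was higher, at 0.920, 1.10 and 0.893 against 0.788 and 0.758. Neither pair overlapped between genotypes.

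The other 4 ratios overlapped. Col3a1 to Col1a1 differed by 0.17 on the log2 scale (exact permutation p = 0.6), Col5a2 to Col5a1 by 0.27 (exact permutation p = 0.4), and Col5a3 to Col5a1 by -0.17 (exact permutation p = 0.4). Without Gpnmb+ pool 2 the difference of Col5a2 to Col5a1 was 0.13, and that of Col5a3 to Col5a1 was -0.06 without DBA/2J pool 2 and -0.28 without DBA/2J pool 3. Col11a1 to Col11a2 differed by 0.43 (exact permutation p = 0.8), and its Gpnmb+ values of 81.7 and 29.3 enclosed all DBA/2J values. The ratio of type III to type I collagen RNA thus varied as much within a genotype as between them.

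**Figure D3:**
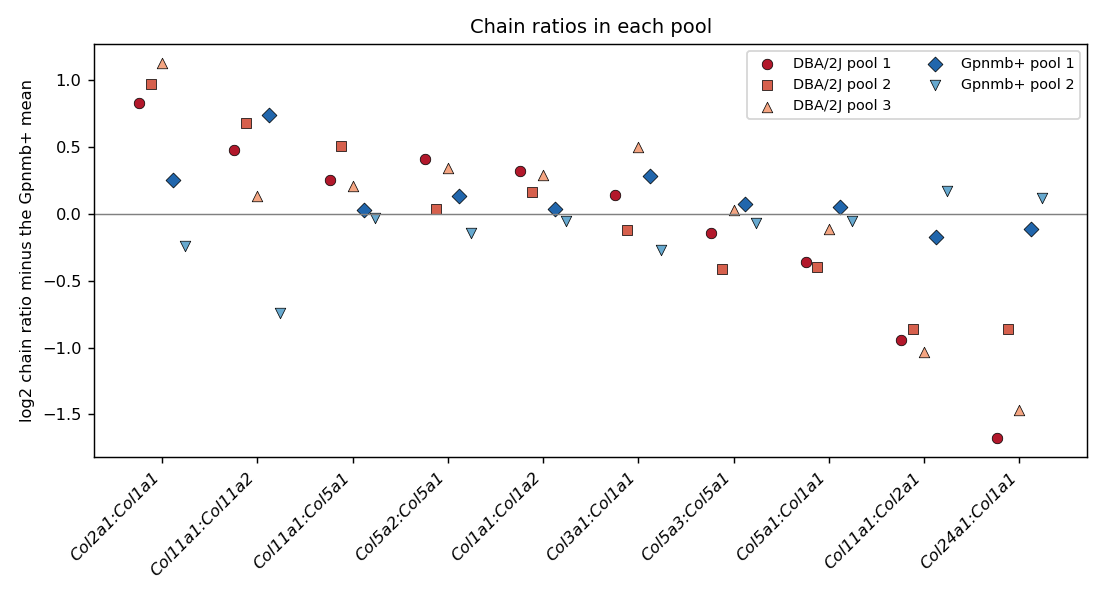
The 10 chain ratios in each pool, as log2 ratio minus the mean of the 2 Gpnmb+ pools. Red symbols are DBA/2J pools and blue symbols Gpnmb+ pools. Col2a1:Col1a1 is higher in DBA/2J by 0.97, Col24a1:Col1a1 and Col11a1:Col2a1 are lower, at -1.34 and -0.94, and the Gpnmb+ pools of Col11a1:Col11a2 lie on either side of the DBA/2J pools.

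Among all genes with a mean of at least 10 CPM, 10465 in number, likeness to a chain was measured as the root mean square difference of log2 CPM profiles over the 5 pools, each centred on its own mean. Nearest to Col1a1 were Nedd9 (0.0789), Inhbb (0.0815), Col11a1 (0.0952), Flrt3 (0.0969) and Slitrk2 (0.101). Of the other chains, Col1a2 ranked 16, Col5a1 48, Col5a2 141, Col3a1 283 and Col5a3 520. Col2a1 ranked 4282 from Col1a1, at a distance of 0.509, and by that same distance Col1a1 ranked 130 from Col2a1. The measure counts the size of differences between pools as well as their order. Both chains put the 5 pools in the same order. The centred log2 values of Col2a1 ran from -1.63 to 0.90 and those of Col1a1 from -0.80 to 0.65. By this measure Col11a1 was nearer to Col1a1 than was Col1a2, its type I partner.

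Nearest to Col2a1 were Col18a1 (0.111), Tenm1 (0.136), Cldn2 (0.146), Clec18a (0.164) and Ntrk2 (0.169). Col18a1, a basement membrane collagen, stood at 984, 965 and 1066 CPM in DBA/2J and at 376 and 210 CPM in Gpnmb+. Its edgeR adjusted p was 0.0501. Col18a1 was picked for likeness to Col2a1 over these same pools, so this p-value is not a separate result. Of the chains, counted from Col2a1, Col3a1 ranked 88, Col11a1 114, Col1a1 130, Col5a2 144, Col5a1 251, Col1a2 255 and Col5a3 422. These rankings rest on 5 pools and describe them only.

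Genes that fold, trim, link, space, bind and break down fibrillar collagens were counted in 7 lists. Of these 80 genes, all of them tested, 2 were called higher and 1 lower in DBA/2J, or 3.75%, beside 0.796% called of all genes. Their median log2 fold change was 0.22. At unadjusted p-values of at most 0.05, 25 were higher and 9 lower, or 42.5%, beside 15.9% of all genes in either direction. Each of the 3 calls was lost when any DBA/2J pool or Gpnmb+ pool 2 was left out, with edgeR adjusted p-values from 0.108 (Podn) to 0.18 (Prelp), and those of Prelp and Mkx also without Gpnmb+ pool 1, at 0.0523 and 0.0711.

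Folding and modification of procollagen (20 genes) had a median of 0.16 with no call. Colgalt2, which adds galactose to collagen hydroxylysines, had the lowest p-value, at 48.9, 51.9 and 56.1 CPM in DBA/2J against 30.3 and 23.0 CPM, a log2 fold change of 0.97 ± 0.14 (SE) with an edgeR adjusted p of 0.0513. Fkbp10, a chaperone and prolyl isomerase for procollagen, followed at 0.50 with an edgeR adjusted p of 0.152. Propeptide removal (8 genes) had a median of 0.26 with no call. Its leading genes were the proteases Tll1, which trims the C-terminal propeptide, at 0.42 with an edgeR adjusted p of 0.178, and Adamts2, which trims the N-terminal one, at 0.45 with an edgeR adjusted p of 0.192. The value of Adamts2 went to 0.65 without Gpnmb+ pool 1 and to 0.27 without Gpnmb+ pool 2.

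The cross-linking enzymes of the lysyl oxidase family were all positive, 5 of 5, with a median of 0.66 and no call. Loxl1 stood at 209, 181 and 217 CPM in DBA/2J and at 122 and 104 CPM in Gpnmb+, a log2 fold change of 0.84 ± 0.12 (SE) with an edgeR adjusted p of 0.0513. Lox stood at 207, 100.0 and 167 CPM against 72.4 and 57.6 CPM, and its log2 fold change of 1.28 ± 0.31 (SE) had an edgeR adjusted p of 0.134. DBA/2J pool 2 was the lowest DBA/2J pool for Lox, as it was for 9 of the 10 chains.

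Fibril assembly and spacing (15 genes) was split, with a median of 0.08, 5 genes higher and 2 lower at unadjusted p-values of at most 0.05. Both genes called there belong to the small leucine-rich proteoglycans, which coat fibrils. The 2 lower genes, Dcn at -0.44 and Kera at -1.09, belong to that class too, so it went both ways. Podn rose to 61.2, 58.1 and 66.1 CPM in DBA/2J from 30.8 and 23.5 CPM in Gpnmb+, a log2 fold change of 1.19 ± 0.14 (SE) with an edgeR adjusted p of 0.035. Prelp rose to 660.4, 661 and 682 CPM from 418 and 356 CPM, a log2 fold change of 0.79 ± 0.11 (SE) with an edgeR adjusted p of 0.0461, which became 0.0533 with total counts and no TMM scaling. With pool number as a replicate block the edgeR adjusted p of Prelp was 0.0528.

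Collagen receptors and uptake (9 genes) had a median of 0.02 and no call. Mrc2, an endocytic receptor that takes up collagen fragments, was at 0.53 with an edgeR adjusted p of 0.134, and the integrin gene Itga10 at -0.93 with an edgeR adjusted p of 0.144. The degradation list (8 genes) had a median of 0.44 and no call. Mmp13, a collagenase, stood at 56.6, 27.1 and 88.9 CPM in DBA/2J and at 16.2 and 14.9 CPM in Gpnmb+, a log2 fold change of 1.89 ± 0.48 (SE) with an edgeR adjusted p of 0.147. Mmp14, a membrane-bound collagenase, was at 0.38 with an edgeR adjusted p of 0.253.

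Among 15 regulators of collagen genes the median was 0.13. Mkx (Mohawk), a tendon transcription factor that promotes type I collagen expression, fell to 7.87, 8.83 and 8.83 CPM in DBA/2J from 16.7 and 16.4 CPM in Gpnmb+. Its log2 fold change was -0.96 ± 0.12 (SE) with an edgeR adjusted p of 0.0374, opposite in sign to those of Col1a1 and Col1a2. With pool number as a replicate block the edgeR adjusted p of Mkx was 0.0612. Scx, another tendon factor with the same kind of target, stood at 12.4, 12.3 and 12.5 CPM against 7.68 and 7.17 CPM, a log2 fold change of 0.74 ± 0.12 (SE) with an edgeR adjusted p of 0.0593. Sox9, the activator of Col2a1 in cartilage, was at -0.30 with an edgeR adjusted p of 0.383, and ran from -0.50 without Gpnmb+ pool 1 to -0.07 without Gpnmb+ pool 2.

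**Figure D4:**
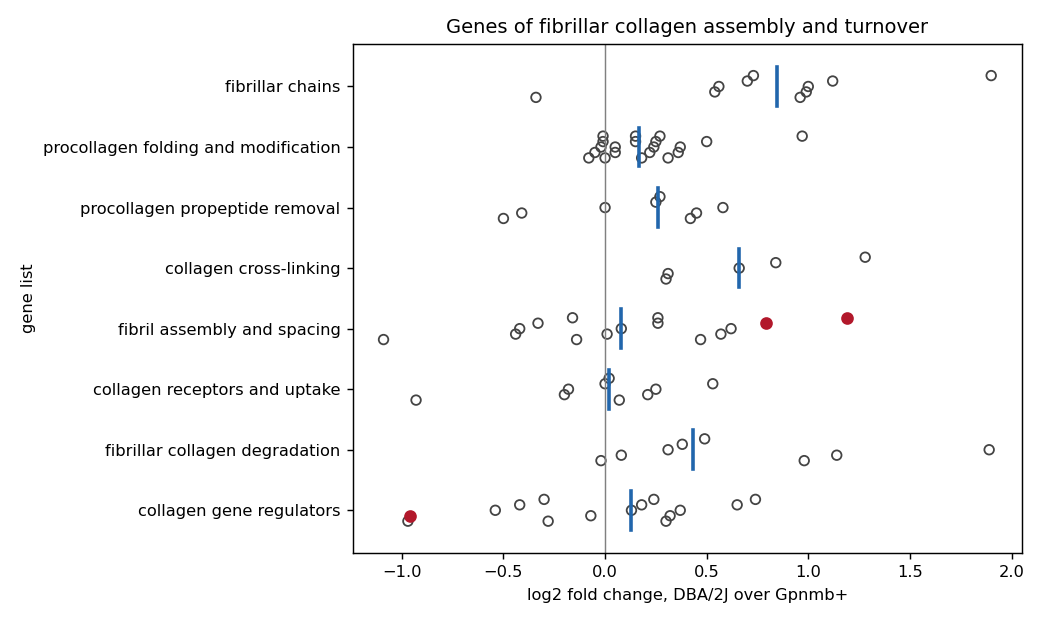
Log2 fold change, DBA/2J over Gpnmb+, of the 10 chains and of 80 genes in 7 lists of collagen assembly and turnover. Each circle is a gene, filled red circles are the genes called by edgeR (Podn and Prelp higher, Mkx lower), and blue bars are list medians. The chains have the highest median, 0.84, followed by the cross-linking enzymes at 0.66.

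Markers of the cell types that the dissection can hold were summed in each pool to set beside the chains. The 12 genes of the fibroblast and keratocyte list, for the usual makers of type I and III collagen, summed to between 5015 and 6194 CPM in DBA/2J and between 6966 and 7038 CPM in Gpnmb+. Most of that gap lay in Dcn, at means of 2180 and 2955 CPM, and in Aldh3a1, at 1143 and 1854 CPM, a gene that is on the corneal epithelium list too. By gene the list was mixed, 5 positive and 6 negative, with a median log2 fold change of -0.08. Pdgfra, a general fibroblast marker, was at 0.00, Pdgfrb at 0.12, Thy1 at 0.36 and Col6a1 at 0.28. Kera and Angptl7 were at -1.09 and -0.82. With 1 pool left out, Pdgfra ran from -0.21 to 0.26 and Pdgfrb from 0.03 to 0.22. Thy1 ran from 0.21 to 0.53, Col6a1 from 0.06 to 0.55 and Angptl7 from -1.13 to -0.52. The chains' sum ran from 4150 to 5704 CPM in DBA/2J and from 2175 to 3118 CPM in Gpnmb+. None of the 12 was called.

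Other lists differed between the genotypes in the direction of the chains, and their part in the result was not tested. Within DBA/2J the chains summed highest in pool 1, where the ciliary and skeletal muscle lists summed lowest. The trabecular meshwork list, by contrast, put all pools in the same order as the chains. That list summed to 5088, 4122 and 4485 CPM in DBA/2J and to 3379 and 2700 CPM in Gpnmb+. The chains summed to 5704, 4150 and 5045 CPM in DBA/2J and to 3118 and 2175 CPM in Gpnmb+. The nonpigmented ciliary epithelium list was positive in 10 of 12 genes, with a median of 0.60, and summed to between 3319 and 4211 CPM in DBA/2J and between 2388 and 2959 CPM in Gpnmb+. Optc, its vitreous proteoglycan, stood at 524, 602 and 684 CPM against 172 and 78.2 CPM. The transcription factor Six6 was called at a log2 fold change of 1.74 with an edgeR adjusted p of 0.0265. Rbp4 and Aqp1 were lower in every DBA/2J pool, at -1.39 and -0.39, and neither was called. Aqp1 went to -0.15 without Gpnmb+ pool 1. Skeletal muscle genes were positive in 8 of 8, with a median of 0.88 and no call, and summed to between 212 and 494 CPM against 133 to 204 CPM. Their highest pool was DBA/2J pool 3 and their lowest Gpnmb+ pool 2.

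For Col2a1 the cartilage-type matrix list bears directly. Of its 11 genes 10 were tested, 8 were positive, and they summed to between 314 and 369 CPM in DBA/2J and 191 and 193 CPM in Gpnmb+. The 2 called genes were the type IX collagens Col9a2, at 77.1, 91.9 and 89.8 CPM against 21.0 and 12.1 CPM with an edgeR adjusted p of 0.0283, and Col9a1, at 52.0, 62.0 and 66.9 CPM against 18.2 and 10.8 CPM with an edgeR adjusted p of 0.0368. Col9a1 is on the ciliary list too. Both calls, and that of Six6, were lost without any DBA/2J pool or without Gpnmb+ pool 2, at edgeR adjusted p-values from 0.0757 (Six6) to 0.119 (Col9a1). The other genes of the list were mixed in level and direction. Acan, the main cartilage proteoglycan, was higher in all DBA/2J pools (log2 fold change 1.96, edgeR adjusted p 0.121) but reached at most 0.471 CPM, and Matn1 was under the count minimum. Matn3, Comp, Col9a3, Col10a1 and Sox9 lay between 15.6 and 70.7 CPM in all pools. The log2 fold changes of Matn3, Comp, Col9a3 and Col10a1 were 1.02, 0.26, 0.56 and 0.60, that of Comp was 0.00 without DBA/2J pool 2, and that of Col10a1 was 0.08 without DBA/2J pool 3. Cnmd went the opposite way to Col2a1, at 2.32, 4.10 and 3.18 CPM against 5.69 and 7.81 CPM, a log2 fold change of -1.08 with an edgeR adjusted p of 0.152, and Hapln1, at 0.13, changed sign with DBA/2J pool 2 or Gpnmb+ pool 2 left out, to -0.13 and -0.05. The part of this list in the level of Col2a1 was not tested.

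The trabecular meshwork list gave a sum and a median of opposite sign. Its 10 genes summed to between 4122 and 5088 CPM in DBA/2J and between 2700 and 3379 CPM in Gpnmb+, because of Chi3l1, the most abundant of them, at 4087, 2991 and 3280 CPM against 1879 and 1183 CPM. By gene 2 were positive and 8 negative, with a median of -0.28. Edn3, an endothelin gene, was the only one called, at a log2 fold change of -0.86 with an edgeR adjusted p of 0.0392, and the call was lost without any 1 pool, at 0.0645 to 0.166. Myoc, the meshwork's best-known gene, stood at -1.06 with an edgeR adjusted p of 0.165. The corneal epithelium, smooth muscle and pericyte, and Schwann cell lists had negative medians, of -0.20, -0.13 and -0.80, and the pigment cell, endothelium and macrophage lists had medians of -0.07, 0.04 and 0.20.

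**Figure D5:**
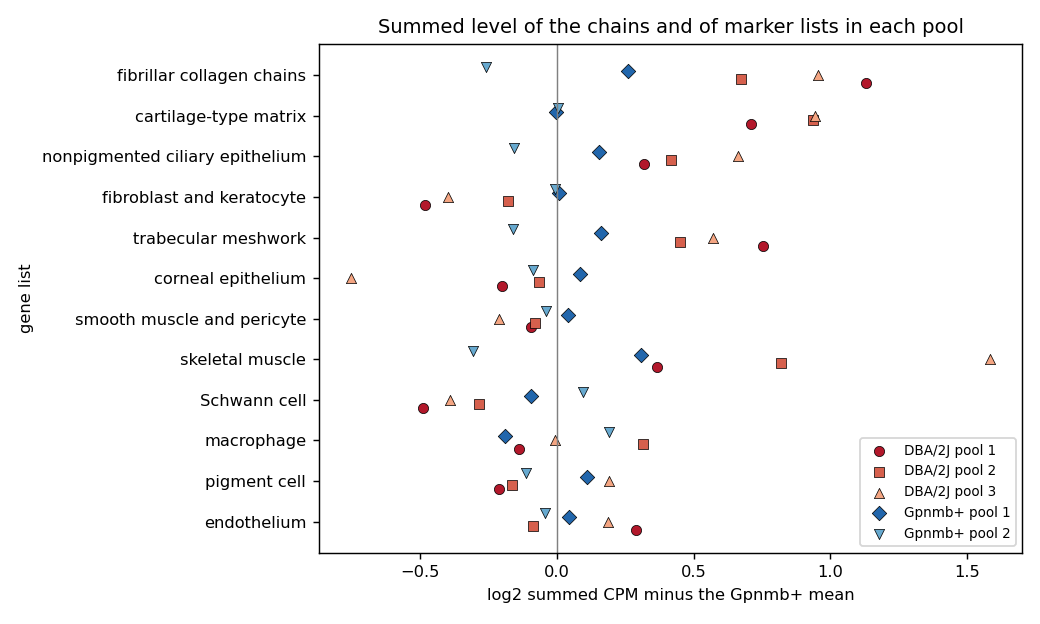
Summed CPM of the 10 chains and of 11 marker lists in each pool, as log2 minus the mean of the 2 Gpnmb+ pools. Red symbols are DBA/2J pools and blue symbols Gpnmb+ pools. In every DBA/2J pool the chains and the cartilage-type matrix, ciliary, meshwork and skeletal muscle lists lie to the right of both Gpnmb+ pools. The fibroblast and keratocyte, smooth muscle and pericyte, and Schwann cell lists lie to the left of both.

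Sex-linked RNA varied within DBA/2J, and its part was not tested. DBA/2J pool 2, which had no Xist count and the highest Ddx3y, was the lowest DBA/2J pool for Col1a1, Col1a2, Col2a1, Col3a1, Col5a1, Col5a2, Col5a3, Col11a1 and Col11a2, and the highest for Col24a1.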

How the data were processed

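Read trimming (fastp) and alignment to GRCm39 (STAR) were done by the authors, who deposited counts of reads per gene as they came, with no scaling. Strand use in counting is not given in the sources used here, so overlapping and antisense genes are uncertain. Genes annotated over a chain and present in the table had at most 48 counts in any pool. Names, positions and canonical lengths came from GENCODE M39 (Ensembl 116, GRCm39), which held 56323 identifiers.

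The test covered the 19713 genes that reached 10 counts in some pool (1 or more). Counts were TMM-scaled and tested with edgeR 4.0.16 (quasi-likelihood, no covariate, both genotypes in 1 fit) in R 4.3.3, with DESeq2 1.42.0 and limma 3.58.1 as alternatives. Calls are defined in the text. A prior count of 2 was added for log2 CPM, and the common coefficient of variation between pools was 20.7%. Ratios and shares were computed in Python 3.11.15 with numpy 2.4.6 and pandas 2.3.3, and compared by exact permutation (scipy 1.17.1). P-values measure the spread between pools of mice, and depth limits only the scarce chains. Members and gene lists were chosen with earlier results of these data known. Named genes were the 10 chains, Col27a1, the 5 nearest profiles, the called genes and the 2 lowest p-values of each pathway list, and genes of the marker lists. Alternatives covered scaling, tool, filters, thresholds, blocking and each pool left out. Not every gene of the lists is reported.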

Additional observations from a re-analysis of the deposited data

How the results depend on the processing

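The direction of each of the 10 chains was kept in all 120 recomputed values, 101 of them on the same side of the threshold and 19 newly past it. No chain was called with all pools in edgeR, against 7 with DESeq2, 1 with limma-voom, 3 without the count minimum, 7 with unadjusted p-values and 0 to 2 with a pool left out. Calls over all genes went from 157 to 927 with DESeq2, 360 without the count minimum, 1710 with unadjusted p-values and 1 to 217 with a pool left out, lowest without DBA/2J pool 2 and highest without Gpnmb+ pool 1. Calls among the 80 pathway genes and Col27a1, 81 in all, went from 3 to 13 with DESeq2, 2 with total counts, 5 with limma-voom, 6 without the count minimum, 15 with unadjusted p-values and 0 without any 1 of the DBA/2J pools or Gpnmb+ pool 2. The cause was not tested.

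Of the ratios, Col3a1 to Col1a1 went from 0.17 to -0.11 and Col11a1 to Col11a2 from 0.43 to -0.31 on the log2 scale without Gpnmb+ pool 2. Over the pools left out, these ran from -0.11 to 0.45 and from -0.31 to 1.17. The mean Col1a1 to Col1a2 level went from 0.514 to 1.10 with exon union lengths.

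Pool number as a replicate block gave 6 called chains and 220 called genes, with 1 residual degree of freedom. Same-numbered pools deviated together at correlations of 0.279 and 0.254, over 2 pairs only, so the numbers were not taken to pair the pools.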
